A study of Sus scrofa with 10 samples.

Results

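Tissue of the ampullary-isthmic junction of the oviduct was compared between 3 sows operated on day 2 and 7 sows operated on day 1, out of 10 sows in all. The day of oestrus and of surgery came from the animal data of the study and not from the array labels, and the sows were assigned to a day by these data alone. The day 2 sows had shown oestrus on day 0 and were 1 inseminated sow, AI1059, and 2 non-inseminated sows, AI788 and AI991. The day 1 sows had shown oestrus on day -1 and were 4 inseminated sows, AI943, AI993, AI837 and AI792, and 3 non-inseminated sows, AI1061, AI696 and AI992. The prefix AI is part of each name and does not mark insemination. All 10 were Landrace x Large White hybrid sows that had lactated at the same time, were weaned on day -4 and were given no hormone to induce oestrus. Semen came from boars of proven fertility and was given after the onset of standing oestrus. Oviducts were removed after ultrasonography had shown that the large follicles were gone. The interval between oestrus and surgery was therefore 2 days in both groups, whereas weaning lay 6 days before surgery in day 2 sows and 5 days before it in day 1 sows, and oestrus came 4 days after weaning in day 2 sows and 3 days after it in day 1 sows. The day of surgery, the day of oestrus and the interval from weaning cannot be told apart. Whole pieces of the wall were used, with epithelium, stroma, muscle and vessels together.

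The ampullary-isthmic junction is the part of the oviduct where eggs and spermatozoa meet. Oestradiol from the follicles before ovulation, and progesterone from the forming corpora lutea after it, govern the secretion of its epithelium, the contraction of its muscle and the traffic of leukocytes in its wall. Sows stop cycling while they suckle, and after weaning follicles grow until oestrus and ovulation follow. In this study a sow that came into oestrus later after weaning was operated later, at a like distance from oestrus.

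Each sow was measured on 1 single-colour porcine array. The values are log2 intensities after background correction and quantile normalization by the authors, and differences are day 2 minus day 1 on this scale, fitted in limma with insemination as a covariate. A difference of 1 is a 2-fold difference. The table held 45220 features, and the 10290 that were paired with a gene symbol gave 4560 genes, for each of which the features were averaged. A gene is called at an adjusted p under 0.05 over all 4560 genes. For single genes the day was also permuted within inseminated and within non-inseminated sows, which gives 50 arrangements and no p below 0.02. These permutation p-values are not adjusted and are given only for genes named in the text. Most of those genes were named by a small p in the same values, so the permutation is no separate support. Values are not compared between genes. Precision is limited by the number of arrays.

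Several defining markers of the oviduct were near the top of the scale in both groups. Oviductin OVGP1 was at 15.96 in day 2 and 15.95 in day 1 sows, close to the highest value, 16, where differences are compressed. The axonemal dynein DNAH9 was at 15.34 in day 2 and 15.33 in day 1 sows, and the smooth muscle actin ACTA2 at 14.84 in day 2 and 14.7 in day 1 sows. Other markers were lower. The secretory marker PIGR was at 7.57 in day 2 and 7.89 in day 1 sows, and the ciliary RSPH4A at 8.3 and 8.31. The fibroblast marker PDGFRB was at 6.84 in day 2 and 6.88 in day 1 sows. STAR and CYP11A1, markers of luteal and granulosa cells, and the fat cell marker ADIPOQ had means under 7.087, which is the median over the arrays, in day 2 and in day 1 sows. Of the skeletal muscle markers, ACTA1 (9.95 in day 2 and 9.86 in day 1 sows), CKM (10.55 and 9.52) and MYOG (7.96 and 7.99) lay above this median. MYH1 (6.65 and 6.79) lay below it. Sow AI1061 of day 1 stood apart, with correlations of 0.927 to 0.945 with the other 9 sows, against 0.966 to 0.986 among the 36 pairs of those. AI788 and AI991, the non-inseminated day 2 sows, were the most alike of all 45 pairs (r = 0.986). AI1059, the inseminated day 2 sow, correlated with them at 0.969 and 0.971, and with the day 1 sows other than AI1061 at 0.971 to 0.976. On the overall profile AI1059 was no nearer to the other day 2 sows than to those of day 1.

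**Figure D1:**
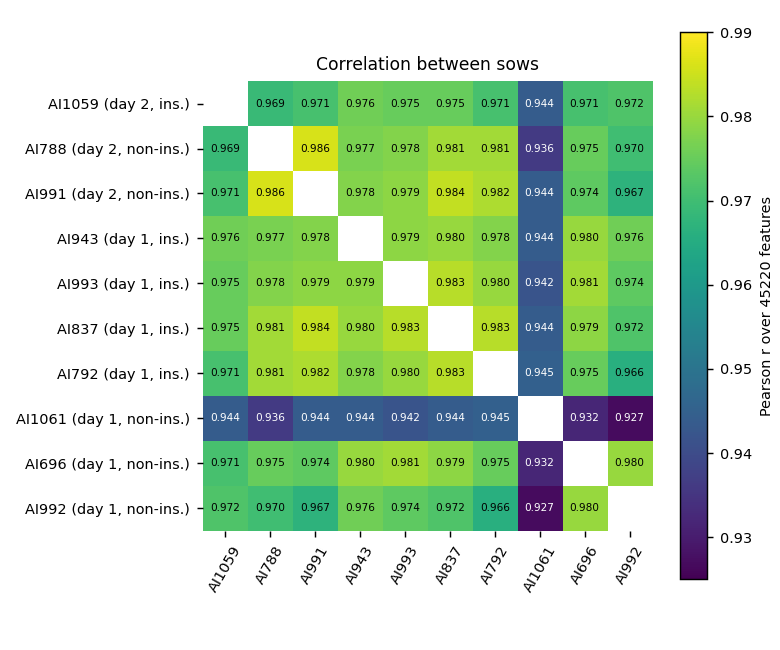
Pearson correlation of the log2 intensities of 45220 features between each pair of sows, with the 3 day 2 sows in the upper rows and the left columns and the 7 day 1 sows after them. AI788 and AI991 form the highest pair (0.986), AI1061 has the lowest values (0.927 to 0.945), and AI1059 lies at 0.969 and 0.971 with the other day 2 sows.

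No transcript passed the test for the day of surgery. Of 45220 features 0 were called in limma (0.0%), with a smallest adjusted p of 0.301, and of 4560 genes 0 were called (0.0%), with a smallest adjusted p of 0.0809. An unadjusted p under 0.05 was reached by 1876 features (4.15%), where chance alone would give 2261, with 1209 higher (2.67%) and 667 lower (1.48%) in day 2 sows, and by 185 genes (4.06%), 116 higher (2.54%) and 69 lower (1.51%). A 2-fold difference was reached by 34 genes (0.746%), 14 of them higher and 20 lower in day 2 sows, and 17 of the 34 also had an unadjusted p under 0.05. In 56 genes (1.23%) the 3 day 2 sows did not overlap with the 7 day 1 sows, 33 above and 23 below them.

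The smallest p belonged to LOC396905, a transcript that has no gene name or role in the sources used here. Its level was 9.7, 10.06 and 10.36 in the day 2 sows AI1059, AI788 and AI991, against a lowest of 8.61, a median of 8.85 and a highest of 9.04 in the day 1 sows. All 3 day 2 sows lay above all 7 day 1 sows, and the inseminated sow and the non-inseminated sows differed the same way, by 0.83 and 1.3. The difference was 1.11 (standard error 0.14), its 3 features gave 1.19, 1.06 and 1.08, and the adjusted p was 0.0809 in limma, with an exact permutation p of 0.02. It passed at 0.0328 without the insemination term, at 0.0194 with array weights and at 0.0256 without AI1059, and the adjusted p in limma was 0.0891 to 0.567 without any other single sow. Every other gene named below had an adjusted p of 0.998 in this limma fit of all 10 sows.

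**Figure D2:**
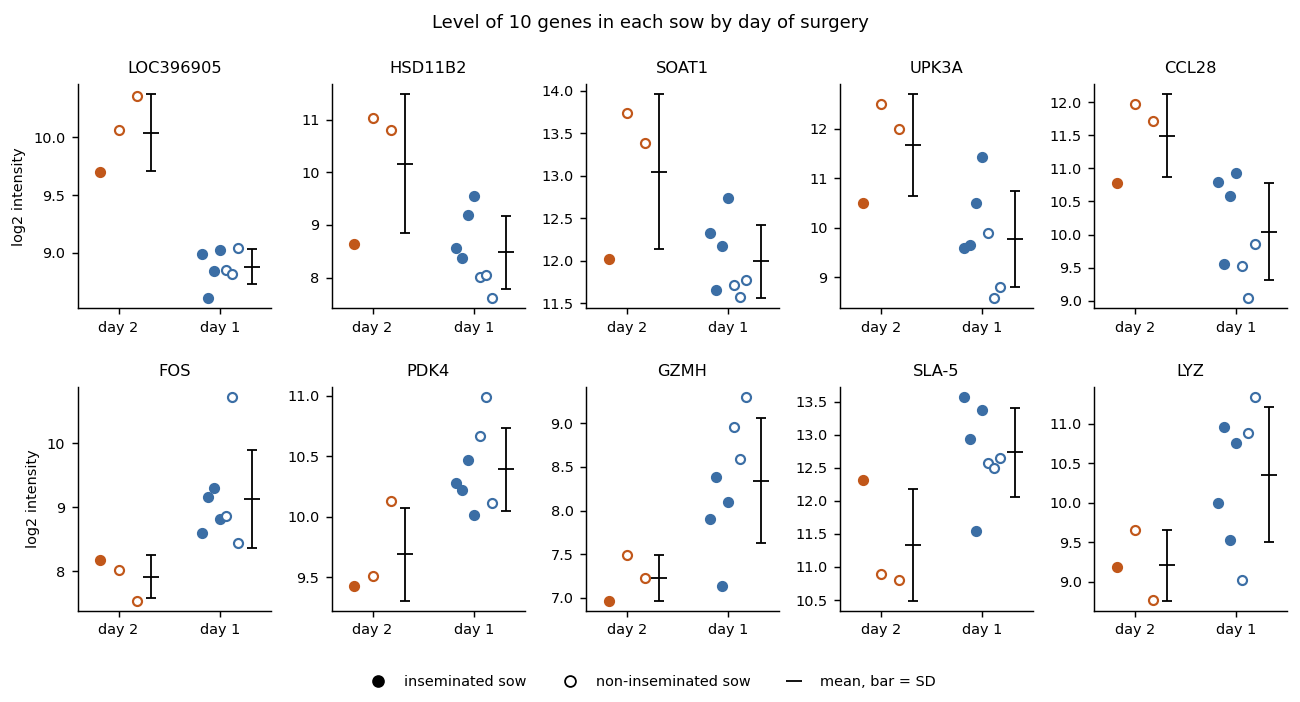
Level (log2 intensity) of 10 genes in the 3 day 2 sows, on the left of each panel, and the 7 day 1 sows, on the right, with filled points for inseminated and open points for non-inseminated sows and the mean with its SD beside them. For LOC396905 and FOS the groups do not overlap, while for HSD11B2, SOAT1, UPK3A and CCL28 the inseminated day 2 sow lies among the day 1 sows and the non-inseminated day 2 sows lie above them.

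Steroid hormones act through nuclear receptors, and enzymes of the tissue decide how much active hormone reaches them. Of 24 measured genes of steroid receptors and steroid response, 15 were higher and 9 lower in day 2 sows, with a median difference of 0.11, where 49.5% of all genes were higher, 50.5% were lower and the median of all genes was -0.002. Members past an unadjusted p under 0.05 were 3, all higher in day 2 sows, and 0 were called. PGR, the progesterone receptor, had 8.97, 9.1 and 8.84 in AI1059, AI788 and AI991, against 8.63 to 10.58 with a median of 9.58 in day 1 sows. Its difference was -0.73 (standard error 0.42, exact permutation p = 0.24), and the day 2 sows lay within the lower part of the day 1 range. ESR1 and ESR2, the oestrogen receptors, differed by -0.12 (standard error 0.18) and 0.14 (standard error 0.13). The mean level of ESR2, 6.81, lay under the median over the arrays, 7.087. PGRMC2, a membrane-associated progesterone receptor component, differed by 0.23 (standard error 0.12), and in like measure in inseminated and non-inseminated sows, by 0.24 and 0.22.

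HSD11B2, which converts cortisol to inactive cortisone, had 11.04 and 10.8 in AI788 and AI991 and 8.64 in AI1059, against 7.61 to 9.56 with a median of 8.37 in day 1 sows. The non-inseminated day 2 sows lay above every day 1 sow, and AI1059 lay inside their range. The difference was 1.71 (standard error 0.57, exact permutation p = 0.06), made of -0.29 among inseminated and 3.03 among non-inseminated sows. SULT1E1, which sulphates oestrogens and so inactivates them, had 8.29 and 8.01 in AI788 and AI991 and 7.06 in AI1059, against 6.7 to 7.45 with a median of 7.17 in day 1 sows. It differed by 0.74 (standard error 0.28) over all sows, and again only the non-inseminated day 2 sows exceeded the day 1 range. IHH, a signal that progesterone induces in the uterine epithelium of the mouse, had 8.22, 8.86 and 8.66 in AI1059, AI788 and AI991, against 7.54 to 8.24 with a median of 7.97 in day 1 sows. Its difference was 0.6 (standard error 0.19, exact permutation p = 0.06), made of 0.15 among inseminated and 0.9 among non-inseminated sows. AI1059 lay inside the day 1 range. The 4 features of IHH gave 0.02, 0.21, 1.55 and 0.63, which do not all follow the mean.

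CYP19A3, a form of the aromatase that makes oestrogens, had 8.81 and 8.4 in AI788 and AI991 and 6.9 in AI1059, against 6.67 to 7.81 with a median of 7.23 in day 1 sows. The difference of 0.78 (standard error 0.38) was -0.52 among inseminated and 1.65 among non-inseminated sows, and its 4 features gave 0.98, 0.59, 1.57 and 0, which do not all follow the mean. Forms of this enzyme resemble each other in sequence, and cross-hybridization between them was not tested. STS, which removes sulphate from steroids, went the other way between the groups. It had 13.4 in AI1059, 10.07 in AI788 and 10.43 in AI991, against 10.09 to 10.94 with a median of 10.38 in day 1 sows. Its difference of 1.04 (standard error 0.56) rested on AI1059 and on 1 of 2 features, which gave 2.13 while the other gave -0.04.

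Cholesterol is the substrate of steroids and is made along the mevalonate pathway. Of 11 measured genes of cholesterol synthesis and its control 9 were higher and 2 lower in day 2 sows (median 0.23), and 3 had an unadjusted p under 0.05. The median was 0.02 among inseminated and 0.21 among non-inseminated sows, and 0.11 without AI1061. FDPS, which makes farnesyl pyrophosphate, had 9.35, 10.97 and 10.08 in AI1059, AI788 and AI991, against 8.98 to 9.61 with a median of 9.35 in day 1 sows. INSIG1, which holds back the pathway when sterols abound, had 8.47, 9.26 and 9.03 in the same sows, against 8.06 to 8.64 with a median of 8.37. SQLE, the squalene epoxidase, had 8.55, 9.1 and 8.89 in them, against 7.47 to 8.7 with a median of 8.42. The differences of these genes were 0.81 (standard error 0.29), 0.53 (standard error 0.17) and 0.6 (standard error 0.25), and in each of them AI788 and AI991 exceeded the day 1 sows while AI1059 did not. SOAT1, which esterifies cholesterol for storage, had 12.02, 13.74 and 13.39 in AI1059, AI788 and AI991, against 11.57 to 12.74 with a median of 11.77 in day 1 sows. Its difference was 1.05 (standard error 0.38, exact permutation p = 0.1), and its 8 features lay between 1 and 1.1.

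UPK3A, a uroplakin of the apical membrane best known from the bladder, had 10.51, 12.49 and 11.99 in AI1059, AI788 and AI991, against 8.58 to 11.42 with a median of 9.66 in day 1 sows. Its difference was 1.98 (standard error 0.62, exact permutation p = 0.08), and the highest day 1 sow, at 11.42, was AI792. UPK1B, a tetraspanin of the same family of plaques, went the other way, with 9.53, 7.96 and 8.29 in the day 2 sows, against 7.98 to 11.17 with a median of 9.79 in day 1 sows (difference -1.08, standard error 0.57). CCL28, a chemokine that draws antibody-producing cells to mucosae, had 10.78, 11.97 and 11.72 in AI1059, AI788 and AI991, against 9.04 to 10.93 with a median of 9.86 in day 1 sows. It differed by 1.55 (standard error 0.44, exact permutation p = 0.08). SLC30A2, which loads zinc into secretory vesicles, had 9.44, 10.36 and 10.29 in the day 2 sows, against 7.69 to 9.67 with a median of 8.89 in day 1 sows (difference 1.25, standard error 0.4). For both genes AI1059 lay inside the day 1 range.

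Of 15 measured genes of the secretory epithelium 6 were higher and 9 lower in day 2 sows, with a median of -0.11 and 0 past an unadjusted p under 0.05. Without AI1061, which had the lowest level of this list, 11.39, the median was -0.27. MUC1, a membrane mucin, differed by -0.6 (standard error 0.32), with 8.35, 8.18 and 8.18 in the day 2 sows, against 7.85 to 9.54 with a median of 8.98 in day 1 sows. KRT8, an epithelial keratin, differed by 0.67 (standard error 0.36), the secreted chaperone CLU by -0.42 (standard error 0.25) and the secreted phosphoprotein SPP1 by -1.1 (standard error 0.69). CES1, a carboxylesterase, had 8.13 in AI1059, 11.11 in AI788 and 10.33 in AI991, against 9.99 to 11.81 with a median of 11.26 in day 1 sows. The difference of -1.38 (standard error 0.59) was carried by AI1059, and its 7 features all had a negative difference, of -0.67 to -1.6. PON3, a paraoxonase, had 8.96, 7.35 and 7.53 in AI1059, AI788 and AI991, against 7.57 to 10.32 with a median of 9.06 in day 1 sows (difference -1.03, standard error 0.61).

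Immediate early genes answer within minutes to growth factors, hormones and stress, and heat shock proteins protect protein folding under stress. Of 20 measured genes of this list 2 were higher and 18 lower in day 2 sows, with a median of -0.26. The mean level of the list was 9.84, 9.89 and 9.85 in AI1059, AI788 and AI991, against 9.95 to 10.66 in day 1 sows, so that the groups did not overlap. Taken singly, 1 of the 20 members, FOS, had groups that did not overlap, where 1.23% of all genes did. Among the 34 lists only this one and that of macrophages and dendritic cells had mean levels without overlap. The median was -0.28 among inseminated sows, with 4 of 20 higher, and -0.22 among non-inseminated sows, with 7 of 20 higher. Of all genes 42.6% were higher among inseminated and 55.4% among non-inseminated sows. Without AI696, the day 1 sow with the highest level, the list median was -0.13. FOS, a subunit of the transcription factor AP-1, had 8.18, 8.02 and 7.54 in AI1059, AI788 and AI991, against 8.44 to 10.73 with a median of 8.87 in day 1 sows. The groups did not overlap, and the difference was -1.26 (standard error 0.44, exact permutation p = 0.04). Its 4 features gave -1.54, -0.79, -1.47 and -1.23, and without AI696 the gene differed by -0.84.

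Other members of the list had smaller differences. HSPE1, a mitochondrial chaperonin, had 11.96, 12.41 and 12.08 in the day 2 sows, against 12.11 to 12.64 with a median of 12.45 in day 1 sows (difference -0.33, standard error 0.13). KLF4, a transcription factor of epithelia, differed by -0.25 (standard error 0.12) and HSPA5, the chaperone of the endoplasmic reticulum, by -0.95 (standard error 0.45). Both differences came mainly from the non-inseminated sows. KLF4 differed by -0.04 among inseminated and -0.39 among non-inseminated sows, and HSPA5 by -0.1 and -1.51. SDF2L1, a protein of folding in the endoplasmic reticulum outside the list, had 14.08, 11.43 and 11.02 in AI1059, AI788 and AI991, against 12.64 to 14.83 with a median of 13.62 in day 1 sows. Its difference of -1.42 (standard error 0.72) was 0.59 among inseminated and -2.76 among non-inseminated sows, so that only the non-inseminated day 2 sows lay below the day 1 range. PDK4 belongs to the list of energy metabolism and not to the immediate early and stress list. It holds back the use of glucose and is induced by glucocorticoids and fasting. PDK4 had 9.43, 9.51 and 10.13 in AI1059, AI788 and AI991, against 10.01 to 10.99 with a median of 10.28 in day 1 sows. It differed by -0.79 (standard error 0.2, exact permutation p = 0.04), and alike in inseminated and non-inseminated sows, by -0.81 and -0.77.

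Leukocytes of the oviduct wall take up debris and spermatozoa and guard the mucosa. Of 16 measured markers of macrophages and dendritic cells 5 were higher and 11 lower in day 2 sows, with a median of -0.19. The mean level of the list was 7.59, 7.66 and 7.6 in AI1059, AI788 and AI991, against 7.73 to 7.97 in day 1 sows, without overlap. Taken singly, 0 of the 16 members had groups that did not overlap, where 1.23% of all genes did. The median was -0.17 among inseminated and -0.15 among non-inseminated sows, but -0.06 without AI1061, which had the highest level, 7.97. Fewer cells of a type and less RNA per cell cannot be told apart in such tissue. MRC1, the mannose receptor, had 6.62, 7.31 and 7.25 in the day 2 sows, against 7.15 to 7.81 with a median of 7.51 in day 1 sows (difference -0.47, standard error 0.18). CD163, the haemoglobin scavenger receptor, differed by -0.46 (standard error 0.23) and the lectin CD209 by -0.29 (standard error 0.16). The features of CD209 had mean levels of 6.66 and 6.59, under the median over the arrays, 7.087. LYZ, lysozyme, which epithelium also makes, had 9.19, 9.66 and 8.77 in AI1059, AI788 and AI991, against 9.02 to 11.34 with a median of 10.76 in day 1 sows. It differed by -1.17 (standard error 0.5), with -1.07, -1.24 and -1.19 in its 3 features.

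**Figure D3:**
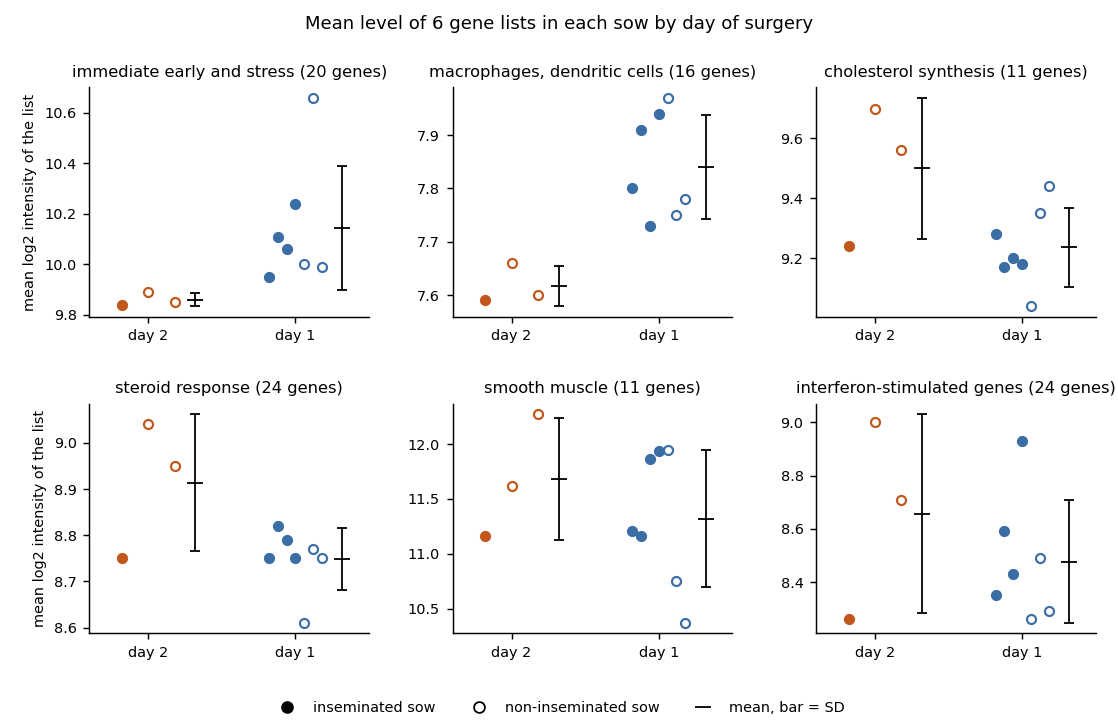
Mean log2 intensity of 6 gene lists in the 3 day 2 sows, on the left of each panel, and the 7 day 1 sows, on the right, with filled points for inseminated and open points for non-inseminated sows and the mean with its SD. The immediate early and stress list (9.84 to 9.89 in day 2 and 9.95 to 10.66 in day 1 sows) and the macrophage list (7.59 to 7.66 in day 2 and 7.73 to 7.97 in day 1 sows) do not overlap, and in the other 4 lists the groups overlap.

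GZMH, a granzyme, had 6.97, 7.49 and 7.23 in AI1059, AI788 and AI991, against 7.14 to 9.3 with a median of 8.38 in day 1 sows. The difference was -1.32 (standard error 0.27, exact permutation p = 0.02), and the day 1 sow at 7.14 was AI837. Of its 2 features 1 gave -2.08 and the other -0.55. GZMB, another granzyme, differed by 0.37 (standard error 0.19). Of the 21 measured T and NK cell markers 7 were higher and 14 lower in day 2 sows, with a median of -0.04.

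SLA-5, a class I gene of the swine MHC that is in none of the lists, had 12.31, 10.89 and 10.81 in AI1059, AI788 and AI991, against 11.54 to 13.57 with a median of 12.64 in day 1 sows. It differed by -1.25 (standard error 0.41, exact permutation p = 0.04). SLA-1, another class I gene and a member of the list of the MHC and antigen presentation, had 14.99, 13.88 and 13.38 in the same sows, against 14.42 to 15.7 with a median of 14.89 (difference -0.78, standard error 0.29). Their light chain B2M differed by -0.46 (standard error 0.23), and CALR, which helps class I to fold, by -0.82 (standard error 0.28), with 9.71, 8.63 and 9.03 in the day 2 sows, against 9.34 to 10.45 in day 1 sows. AI788 and AI991 lay below every day 1 sow for SLA-5, SLA-1 and CALR, whereas AI1059 lay inside their range for all 3. Class I genes resemble each other closely, and the probes may not tell them apart. CD1D, a class I-like molecule that presents lipids, differed by 0.48 (standard error 0.37). Of the 25 measured genes of the list, without SLA-5, 9 were higher and 16 lower in day 2 sows, and the median was -0.04, or 0.07 without AI1061.

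Of 41 cytokines and chemokines 13 were higher and 28 lower in day 2 sows, with a median of -0.06, and CCL28 was the 1 member past an unadjusted p under 0.05. TNF had 8.36, 6.45 and 6.86 in AI1059, AI788 and AI991, against 7.56 to 8.21 with a median of 7.89 in day 1 sows, so that AI1059 lay above and the non-inseminated day 2 sows lay below all day 1 sows. Of its 2 features 1 gave -0.71 over all sows and lay under 6.14, the 1st percentile of the table, in 2 day 2 sows. The other feature gave -0.41. CXCL8, which attracts neutrophils, differed by 0.34 (standard error 0.19), CCL2, which attracts monocytes, by 0.24 (standard error 0.16) and PTGS2, the inducible prostaglandin synthase, by -0.39 (standard error 0.26). The mean level of CXCL8, 6.71, lay under the median over the arrays, 7.087. VNN2, a vanin with a part in leukocyte migration, had 11.87, 9.63 and 8.21 in AI1059, AI788 and AI991, against 10.28 to 13.75 with a median of 12.03 in day 1 sows. Its difference of -2.13 (standard error 0.93) was 0.23 among inseminated and -3.71 among non-inseminated sows. Of 21 genes of Toll-like receptor signalling 9 were higher and 12 lower. The adaptor MYD88 differed by 0.28 (standard error 0.12) and LY96, which binds endotoxin, by -0.51 (standard error 0.18).

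Interferon-stimulated genes were higher in mean in day 2 sows in 20 of 24 and lower in 4, with a median of 0.16, but the direction was that of the non-inseminated sows. Among inseminated sows 5 of 24 were higher (median -0.31), where 42.6% of all genes were, and among non-inseminated sows 20 of 24 were higher (median 0.49), where 55.4% of all genes were. ISG15, a ubiquitin-like protein, had 10.37, 13.37 and 12.25 in AI1059, AI788 and AI991, against 10.17 to 11.48 with a median of 10.97 in day 1 sows. MX1, an antiviral GTPase, had 10.45, 12.68 and 10.95 in them, against 9.98 to 11.1 with a median of 10.95. Their differences were 0.92 (standard error 0.52) and 0.61 (standard error 0.44), and the list median was 0.03 without AI788, the sow with the highest level in this list, 9. DDX58, a sensor of viral RNA, differed by 0.24 (standard error 0.19) and IFIT1 by 0.29 (standard error 0.15).

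Contractile genes of smooth muscle propel eggs and embryos through the oviduct. All 11 measured members of this list were higher in mean in day 2 sows, by 0.08 to 0.64 with a median of 0.44, and 0 had an unadjusted p under 0.05. Among inseminated sows the median was -0.43 with 1 of 11 higher, and among non-inseminated sows it was 0.97 with 11 of 11 higher. The mean level of the list was 11.16, 11.62 and 12.27 in AI1059, AI788 and AI991, against 10.37 to 11.95 in day 1 sows, where the lowest, 10.37 and 10.75, were the non-inseminated AI992 and AI696. Leaving out AI991 gave a median of 0.12, and leaving out AI992 gave 0.2. MYLK, the kinase that starts contraction, had 11.94, 12.67 and 13.44 in the day 2 sows, against 11.32 to 12.91 with a median of 12.09 in day 1 sows (difference 0.52, standard error 0.46). KCNMB1, a subunit of a potassium channel, differed by 0.47 (standard error 0.24) and ACTC1, an actin, by 0.44 (standard error 0.32). Stroma and matrix genes had medians of the same signs as muscle within each group of sows, -0.32 among inseminated and 0.25 among non-inseminated sows and 0.01 over all. Their part in the muscle values was not tested.

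CHRM3, the muscarinic receptor of smooth muscle, had 7.31, 7.28 and 7.58 in the day 2 sows, against 6.9 to 7.42 with a median of 7.06 in day 1 sows (difference 0.36, standard error 0.13, exact permutation p = 0.04). OXTR, the oxytocin receptor, had 7.04, 6.83 and 6.91 in them, against 6.58 to 6.89 with a median of 6.73 (difference 0.22, standard error 0.1). All these OXTR values lay under the median over the arrays, 7.087, and the mean level of CHRM3, 7.16, was close to it. Of the 15 measured muscle receptors 6 had a mean above this median. EDN1, the endothelin that contracts oviduct muscle, differed by 0.24 (standard error 0.12). In vessels SELP, the selectin on which leukocytes roll, had 7.71, 7.81 and 7.48 in the day 2 sows, against 6.77 to 7.61 with a median of 7.23 in day 1 sows (difference 0.51, standard error 0.15, exact permutation p = 0.02). KLF2, a factor induced by flow, differed by -0.3 (standard error 0.13) and CDH5, the cadherin of endothelium, by 0.44 (standard error 0.23). The features of CDH5 gave 0.1 and 0.79. Of the other endothelial markers, KDR differed by -0.69, PECAM1 by 0.02, VWF by 0.08 and TEK by 0.14. The 20 measured genes of endothelium and angiogenesis had a median of 0.02, with 12 higher and 8 lower in day 2 sows.

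**Figure D4:**
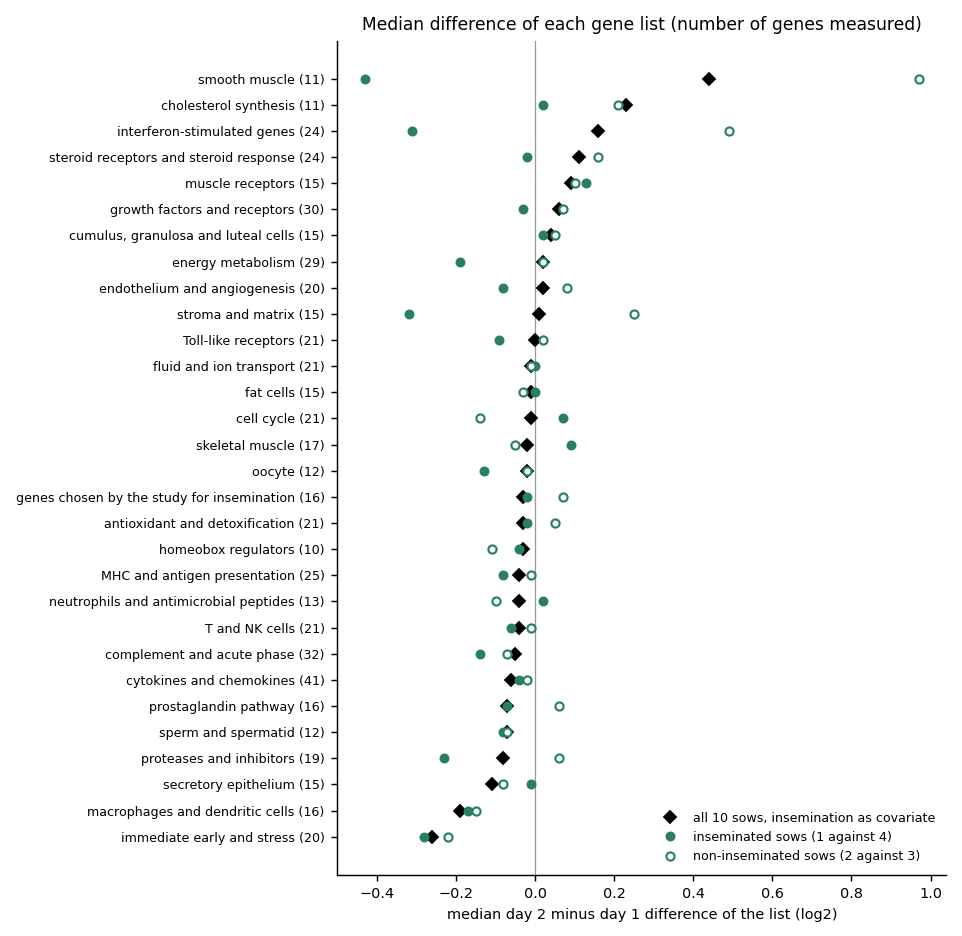
Median difference (day 2 minus day 1, log2) of the 30 gene lists with 10 or more measured genes, given with the number of genes, for all 10 sows (diamonds), for AI1059 against 4 inseminated day 1 sows (filled circles) and for AI788 and AI991 against 3 non-inseminated day 1 sows (open circles). Smooth muscle lies at -0.43 in inseminated and 0.97 in non-inseminated sows, and immediate early and stress genes lie at -0.28 in inseminated and -0.22 in non-inseminated sows.

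The difference between day 2 and day 1 was set side by side in inseminated and non-inseminated sows. Over 4560 genes the difference of AI1059 from 4 inseminated day 1 sows and that of AI788 and AI991 from 3 non-inseminated day 1 sows had the same sign in 1823 of them, with a correlation across genes of r = -0.225 (Spearman rho -0.284). No sow is in both differences, and genes are not independent replicates, so these values describe the sows. AI788 and AI991 lay together above all 7 day 1 sows in 272 genes and below them in 143, which is 415 genes (9.1%). AI1059 lay inside the day 1 range in 314 of these, beyond it on the same side in 56 and beyond it on the other side in 45. It lay outside the day 1 range in 959 of all 4560 genes (21.0%).

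**Figure D5:**
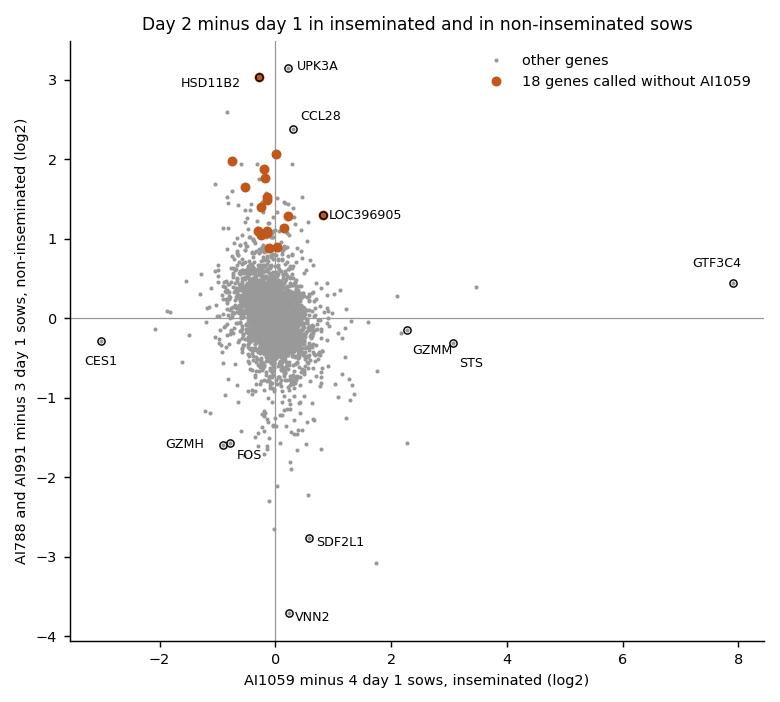
Difference between day 2 and day 1 (log2) for each of 4560 genes, in inseminated sows (AI1059 minus 4 day 1 sows, horizontal) and in non-inseminated sows (AI788 and AI991 minus 3 day 1 sows, vertical), with the 18 genes called without AI1059 in colour. Those 18 lie high on the vertical axis and, apart from LOC396905 at 0.83, between -0.75 and 0.22 on the horizontal axis, and 1823 of the 4560 genes have the same sign on both axes.

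Without AI1059 the day difference is that of AI788 and AI991 from the non-inseminated day 1 sows AI1061, AI696 and AI992. The inseminated day 1 sows then enter only the estimate of the spread. In this fit 18 genes were called (0.395%), all higher in day 2 sows. A limma fit of the non-inseminated sows alone called 0 of 4560 genes, with a smallest adjusted p of 0.0525. The calls therefore depend on the spread of the inseminated day 1 sows. Ranges and medians given beside these differences are those of all 7 day 1 sows. AI788 and AI991 exceeded every day 1 sow in all 18, and AI1059 lay inside the day 1 range in 16, the exceptions being LOC396905 and the stress kinase MAPK13. These genes were singled out after their values had been seen, and their values describe the sows. Steroid and cholesterol enzymes among them were HSD11B2 (difference 3.03 without AI1059, adjusted p = 0.0201 in limma), SULT1E1 (1.4, adjusted p = 0.0178), CYP19A3 (1.65, adjusted p = 0.0283) and SOAT1 (1.88, adjusted p = 0.0288). Others among them were MME, the peptidase neprilysin (1.98), CA9, a carbonic anhydrase induced by hypoxia (1.53), PLAU, the urokinase that activates plasminogen (1.77), and the zinc transporter SLC30A2 (2.07). MME had 9.16 and 9.13 in AI788 and AI991 and 7.51 in AI1059, against 6.72 to 8.52 with a median of 8 in day 1 sows. CA9 had 9.93 and 9.28 in AI788 and AI991 and 8.33 in AI1059, against 7.93 to 8.74 with a median of 8.32. PLAU had 12.72 and 12.08 in AI788 and AI991 and 11.2 in AI1059, against 10.35 to 11.8 with a median of 11.2.

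The rest of the 18 had differences of 0.89 to 1.48 without AI1059. They were the elongation factor ELL3 (1.48), SRPX (1.29), the calcium-binding proteins RGN (1.04) and NCALD (1.1), the calcium-dependent protease CAPN2 (1.1), CMAH, which modifies sialic acid in pigs and most mammals (1.08), EPS15L1, a protein of endocytosis (0.9), CDC42SE1, which binds a small GTPase (0.89), MAPK13 (1.14) and LOC396905 (1.3). Among day 1 sows SULT1E1 had 7.17 to 7.45 in the inseminated ones, against 6.84, 6.7 and 6.71 in the non-inseminated AI1061, AI696 and AI992, and HSD11B2 had 8.37 to 9.56 in the inseminated ones, against 8.02, 8.04 and 7.61 in the non-inseminated ones. For these genes the non-inseminated day 1 sows were thus the lowest. AI792, an inseminated day 1 sow, had the highest day 1 level of HSD11B2 (9.56), SOAT1 (12.74), UPK3A (11.42), CCL28 (10.93), MME (8.52) and CA9 (8.74). AI1061 is among the 3 day 1 sows of this comparison.

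The term for a difference between inseminated and non-inseminated sows was called for 62 of 45220 features (0.137%) and 4 of 4560 genes (0.0877%) in limma. It rests on 1 sow, AI1059, on the side of insemination and day 2. SULT1E1 had a difference smaller by 1.65 in inseminated sows (interaction -1.65, adjusted p = 0.0446 in limma). The other 3 genes had a level in AI1059 far from all other sows. GTF3C4, a subunit of the transcription factor TFIIIC, had 15.01 in AI1059, 7.44 in AI788 and 7.19 in AI991, against 6.58 to 7.36 in day 1 sows (interaction 7.46, adjusted p = 4.43e-05 in limma), and 1 feature measured it. STS, described above, gave 3.39 (adjusted p = 0.0114 in limma). GZMM, a granzyme of NK cells, had 9.91 in AI1059 and 7.49 in both AI788 and AI991, against 7.51 to 7.83 in day 1 sows (2.42, adjusted p = 0.00276 in limma). Of its 2 features 1 gave a day difference of 1.73 over all sows and the other -0.09. HSD11B2 and MME had adjusted p-values of 0.0687 and 0.0525 for this term in limma.

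Other named differences were of single genes. IGDCC3 had 10.46, 10.67 and 11.26 in AI1059, AI788 and AI991, against 8.54 to 10.57 with a median of 9.98 in day 1 sows (difference 1.28, standard error 0.41), and OAT, ornithine aminotransferase, differed by 1.04 (standard error 0.44). SLC4A2, an anion exchanger, differed by -1.19 (standard error 0.45), but 1 of its 2 features gave -2.03 at a mean level of 5.3, below 6.14 (the 1st percentile of the table) in 3 day 2 and 2 day 1 sows, and the other gave -0.35. CKM, a muscle creatine kinase, had 9.67, 10.65 and 11.33 in AI1059, AI788 and AI991, against 9 to 10.6 with a median of 9.53 in day 1 sows (difference 0.94, standard error 0.39), and the highest day 1 sow was AI1061. TNNC2, a troponin of fast skeletal muscle, differed by 0.54 (standard error 0.18), whereas the 17 measured genes of the skeletal muscle list had a median of -0.02. PRDX5, a peroxidase of mitochondria and peroxisomes, had 14.2, 14.24 and 14.15 in AI1059, AI788 and AI991, against 13.81 to 14.07 with a median of 13.86 in day 1 sows. The groups did not overlap, with a difference of 0.27 (standard error 0.11, exact permutation p = 0.04). MT1A, a metallothionein, differed by 0.62 (standard error 0.27) and GSTT1, a glutathione transferase, by 0.42 (standard error 0.19). PCNA, a clamp of DNA replication, differed by -0.62 (standard error 0.27), with the cell cycle list at a median of -0.01.

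Genes that the study had chosen for insemination on these same sows were also read by day. Of 16 measured 7 were higher and 9 lower in day 2 sows, with a median of -0.03. RAB1B differed by 1.63 (standard error 0.53), with 9.83 in AI1059, 5.91 in AI788 and 5.75 in AI991, against 5.32 to 6.95 in day 1 sows. The value rested on AI1059 and on a feature with 3.18 that lay under 6.14 in 2 day 2 and 5 day 1 sows, while its other feature gave 0.07. C3 differed by -0.19 (standard error 0.55), ITIH4 by -0.05 (standard error 0.23), GSTA1 by 1 (standard error 1.37) and TMOD3 by 0.37 (standard error 0.34). TOR3A and ALOX12, also of the study's RT-PCR, were not among the genes followed by name. Of the reference genes of the study's RT-PCR, ACTB differed by 0.22 (standard error 0.17) and GAPDH by 0.02 (standard error 0.12), and these signs turned under alternatives given in the closing section.

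Of 32 genes of complement and the acute phase 12 were higher and 20 lower in day 2 sows (median -0.05), of 30 growth factors and receptors 16 and 14 (median 0.06), of 29 genes of energy metabolism 16 and 13 (median 0.02) and of 21 genes of antioxidant defence and detoxification 9 and 12 (median -0.03). Prostaglandin genes were 6 higher and 10 lower (median -0.07), and CBR1, a carbonyl reductase that also acts on prostaglandins, had 10.58, 10.56 and 10.58 in AI1059, AI788 and AI991, against 9.86 to 10.53 with a median of 10.35 in day 1 sows, without overlap (difference 0.3, standard error 0.15). Proteases and inhibitors had a median of -0.08, fluid and ion transport -0.01, and neutrophils and antimicrobial peptides -0.04. The 3 measured axonemal genes of ciliated cells differed by -0.02 to 0.04, with a median of -0.01. This median was -0.31 among inseminated sows, with 0 of 3 higher, and 0.22 among non-inseminated sows, with 3 of 3 higher, and it was -0.33 without AI1061. Lists of cumulus, granulosa and luteal cells, of the oocyte, of sperm and of fat cells had medians of 0.04, -0.02, -0.07 and -0.01. Muscle receptors had a median of 0.09, homeobox regulators -0.03, B and plasma cells -0.05, red blood cells 0.01 and reference genes 0.02. Without AI1061 the medians of these lists, from complement to reference genes and other than ciliated cells, lay between -0.11 for sperm and 0.12 for muscle receptors, and those of proteases and inhibitors (0.02), energy metabolism (-0.02), fluid and ion transport (0.03) and reference genes (-0.09) turned in sign. Of the earlier lists, those of skeletal muscle (0.05) and of the genes chosen by the study (0.01) turned without AI1061, the cell cycle list was at -0.09 and the endothelial list at 0.07.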

How the data were processed

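RNA of the ampullary-isthmic junction of 10 sows was measured on single-colour Agilent porcine arrays, 1 per sow. Per the methods, the authors read spot intensities with GenePix and used limma for normexp background correction (offset 10) and quantile normalization. What they deposited are log2 values of 45220 features, which entered all fits unchanged. Their sorted values differ by at most 0.054 between arrays and they range between 3.569 and 16.0. Control spots are not marked, and all features were tested. Symbols of the platform's annotation were updated by accession for 6055 features, and 446 changed. Of the features 10290 had 1 symbol and 34930 none, and 2391 of the 4560 genes had more than 1 feature, whose mean was taken. Coordinates are left out because the sources used here name no build for the array.

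Insemination came from the array labels, and the days of oestrus, surgery and weaning from the study's animal data and methods. The tool was limma 3.58.1 under R 4.3.3, with lmFit and eBayes on insemination and day, and p-values were adjusted by Benjamini-Hochberg over every feature or gene tested and called under 0.05. For single genes an exact two-sided test permuted the day within inseminated and non-inseminated sows. Lists, 34 with measured genes, are described by counts and medians beside those of all genes. A second model added the product of day and insemination. The fit was tested on simulated data. Counts and figures were made in Python 3.11.15.

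Named genes were those that differ 2-fold with a mean level above the 40th percentile, 10 at most in each direction by p. Named too were those that do not overlap and differ 2-fold, and up to 4 members of each list by p. The last were marker genes and the genes of the study's RT-PCR other than TOR3A and ALOX12. Steroid receptors and genes called without AI1059 or in the interaction were added after their values had been seen. The sows to be compared and the lists were chosen with earlier results of these data known. Alternatives were quantile normalization again, median centring, a filter on low levels, no insemination term, each insemination group alone, array weights, a trended and robust variance, an ordinary linear model, the highest-mean or median feature, and leaving out each sow.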

Additional observations from a re-analysis of the deposited data

Results flagged for a closer look

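Of 111 genes followed by name, 11 had a day 1 sow that lay far from the other 6 by Dixon's test, which chance alone gives in about 1 group of 20. FOS, the AP-1 subunit, was at 10.73 in AI696, KRT8 at 11.95, the lowest, in AI1061, PTGS2 at 7.98 and CKM at 10.6 in AI1061, and EDN1 at 6.75, the lowest, in AI992. BGN was at 6.87 in AI837, ITIH2 at 8.53 and ITIH4 at 8.08 in AI943, CXCL8 at 6.95 in AI993, KLF4 at 8.44, the lowest, in AI792 and ESR2 at 7.2 in AI696. The 3 day 2 sows are too few for this test.

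In 4 genes the difference between day 2 and day 1 was unlike in inseminated and non-inseminated sows by the interaction term in limma. Inseminated minus non-inseminated, it was 7.46 for GTF3C4, 3.39 for STS, 2.42 for GZMM and -1.65 for SULT1E1. The inseminated day 2 side of each is AI1059 alone. For SULT1E1 AI1059 lay inside the day 1 range, at 7.06, and AI788 and AI991 lay above it, at 8.29 and 8.01.

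In 9 further genes of the 111 followed by name, every day 2 sow lay beyond the day 1 sows of its own insemination group. The 2 insemination groups went in opposite directions, and the interaction term was not called in limma. The share of all 4560 genes with this pattern was not counted, and its inseminated side rests on AI1059 alone. PLAU, MME, CYP19A3, RGN and CAPN2 are among the 18 genes called without AI1059, in all of which AI788 and AI991 exceeded every day 1 sow. Their non-inseminated side is thus no separate finding. The inseminated minus the non-inseminated difference was 0.94 for PTGS2, 1.85 for TNF, 0.62 for the apoptosis inhibitor BIRC5, -0.9 for DDX58, -1.96 for PLAU, -2.73 for MME, -2.17 for CYP19A3, -1.29 for RGN and -1.4 for CAPN2.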

How the results depend on the processing

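Of 2315 gene differences recomputed under the alternatives, 2240 kept their direction and their side of the threshold, 23 now passed it and 52 turned, in 42 of 111 genes. Another quantile normalization, median centring, a filter on low levels, a trended variance, an ordinary linear model and the choice of feature left the count of called features and genes at 0. Called features numbered 87 among inseminated sows alone, where AI1059 is assumed to vary like the other sows, and 0 to 10 without single sows (10 without AI1059, 1 without AI991). Called genes numbered 1 without the insemination term, 3 among inseminated sows alone, 2 with array weights and 0 to 18 without single sows (18 without AI1059). Features with a 2-fold difference and an unadjusted p under 0.05, 148 over all sows, numbered 559 among inseminated and 492 among non-inseminated sows, 584 with array weights, 80 in the ordinary linear model and 123 to 596 without single sows (596 without AI1059, 239 without AI1061). Genes of this kind, 17 over all sows, numbered 26 among inseminated and 74 among non-inseminated sows, 101 with array weights, 11 in the ordinary linear model and 10 to 89 without single sows (89 without AI1059, 26 without AI1061, 10 without AI991 and 11 without AI696). Genes that do not overlap, 56 over all sows, numbered 73 to 415 without single sows (415 without AI1059, 145 without AI991, 144 without AI788, 110 without AI992, 96 without AI1061 or AI792 and 85 without AI837), and leaving out a sow can only add to them. Genes with a called interaction numbered 7 with a trended and robust variance. List medians moved by over 1 SD in 32 of 713 cases.

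Among inseminated sows alone, where AI1059 stands against 4 sows, 35 genes turned. Upward differences over all sows became -0.29 for HSD11B2, -0.2 for SOAT1, -0.31 for OAT, -0.26 for SULT1E1, -0.01 for KRT8, -0.36 for ACTC1, -0.18 for KCNMB1, -0.52 for MYLK, -0.06 for POSTN, -0.37 for COL6A3, -0.19 for PLAU, -0.08 for A2M, -0.35 for TIMP1, -0.6 for ISG15, -0.32 for MX1, -0.3 for DDX58, -0.04 for CXCL8, -0.08 for TMOD3, -0.06 for ACTB, -0.75 for MME, -0.14 for CA9, -0.52 for CYP19A3, -0.14 for ELL3, -0.25 for RGN, -0.14 for NCALD, -0.3 for CAPN2, -0.14 for CMAH and -0.12 for CDC42SE1. Downward ones became 0.23 for VNN2, 0.59 for SDF2L1, 0.27 for PON3, 0.56 for SPP1, 0.17 for PTGS2, 0.55 for TNF and 0.07 for BIRC5. Among non-inseminated sows alone STS became -0.31, C3 0.13, ITIH4 0.02 and GZMM -0.15. With the highest-mean feature STS became -0.04, ITIH4 0.1 and ACTB -0.01, with the median over features ITIH4 became 0.04, and with array weights GSTA1 became -0.07, GAPDH -0.05 and ESR2 -0.06. Without single sows the differences ranged between -0.31 and 1.52 for STS, -0.37 and 0.13 for C3, -0.13 and 0.05 for ITIH4, -0.05 and 0.08 for GAPDH and -0.15 and 1.1 for GZMM, the turns coming without AI1059 for STS, C3 and GZMM, without AI1061 for GAPDH and without AI943 or AI1059 for ITIH4. The cause of these turns was not tested. No paired analysis was possible because the labels give the sows no number shared between groups. Intensities near the highest value, 16, compress differences. Features with values under the 1st percentile, 6.14, could instead differ widely. Over all sows 1 feature of RAB1B gave 3.18 and 1 of SLC4A2 gave -2.03, while their other features gave 0.07 and -0.35.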
